A study of Drosophila melanogaster with 6 samples.

Results

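Chitin synthesis and apical matrix genes were followed in whole Drosophila melanogaster embryos in which the transcription factor Sage was made outside its normal place, the salivary gland. The set comprised 35 genes that build, modify, break down or bind chitin, or that encode zona pellucida (ZP) proteins of the apical matrix. A gene was measured when a probe set of the array was annotated to that gene alone, and where several such probe sets existed the brightest on average was taken. This gave 32 of 35 genes, among 11982 genes measured in the same way. The genes rtv, m and nyo had no such probe set. Cht3 is listed as Cht10 in the current RefSeq annotation and keeps its older name here.

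In the experimental group, 3 samples of embryos carried UAS-Sage under the tub-Gal4 driver, whose tubulin promoter is active in most cells. In the control group, 3 samples came from the tub-Gal4 strain, so the driver was present in both groups and only the UAS-Sage transgene differed by label. By label, all embryos were of stages 11 to 16, a window that spans the onset of cuticle formation. Maternal transcripts, described below, had higher summed signals in every control array than in any Sage array. Whether the groups matched in age was not tested. RNA was taken from sorted whole embryos, and in such samples fewer cells of a type and less RNA per cell cannot be told apart. Separate embryo collections are not stated in the labels, so it is not known what kind of replicate spread the p-values reflect. Values are log2 signals of Affymetrix 3' arrays, and 3 arrays per group limit the precision.

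Chitin is a polymer of N-acetylglucosamine that is made at the apical plasma membrane of epidermal and tracheal cells from UDP-N-acetylglucosamine. Deacetylases, chitinases and chitin-binding proteins then shape the fibres into the cuticle and into the matrix of the tracheal lumen. ZP proteins are anchored at the apical membrane, link it to this matrix and shape the denticles, the pointed epidermal projections of the embryo, where several of them are known targets of the Shavenbaby form of the ovo gene.

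The sage transcript itself had log2 signals of 12.39, 12.53 and 12.50 in the Sage arrays, against 7.38, 7.50 and 7.66 in the control arrays. The arrays were not equally alike within a group. Pearson's r across all probe sets was at least 0.9895 between Sage arrays, but 0.9376 between control replicates 1 and 3, and control replicate 1 reached 0.9717 with Sage replicate 1. Control RNAs added during labelling and hybridisation also separated the groups completely, with BioB differing by 1.39 and Dap by -0.66 on the log2 scale, so handling and genotype cannot be told apart for any gene below.

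Of the 32 genes, 1 was called higher with Sage and 1 was called lower at an adjusted p under 0.05 (limma, Benjamini-Hochberg adjustment over all 18769 probe sets tested). Over all genes, the same rule called 5.6% higher and 12.2% lower, so the members' shares of 3.12% in each direction did not exceed the background. Before adjustment, 11 of the 32 (34.4%) had a p under 0.05, against 33.3% of all genes. The chitinase gene Cht4 was the member that rose, and the ZP gene dpy was the member that fell. The other 30 genes had differences between -0.17 and 3.66, with adjusted p-values of 0.0594 to 0.984. Differences from the control mean were positive for 28 of 32 genes (87.5%, against 52% of all genes), with a median of 0.69, against 0.01 over all genes. This tally rested on the control arrays used. Over control replicate 1 alone the Sage mean was higher for 18 members (56.2%, against 56.8% of all genes), over control replicate 2 for 24 (75%, against 52.6%) and over control replicate 3 for 29 (90.6%, against 44.4%). Without control replicate 3 the median was 0.28 and 7 members changed direction.

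**Figure D1:**
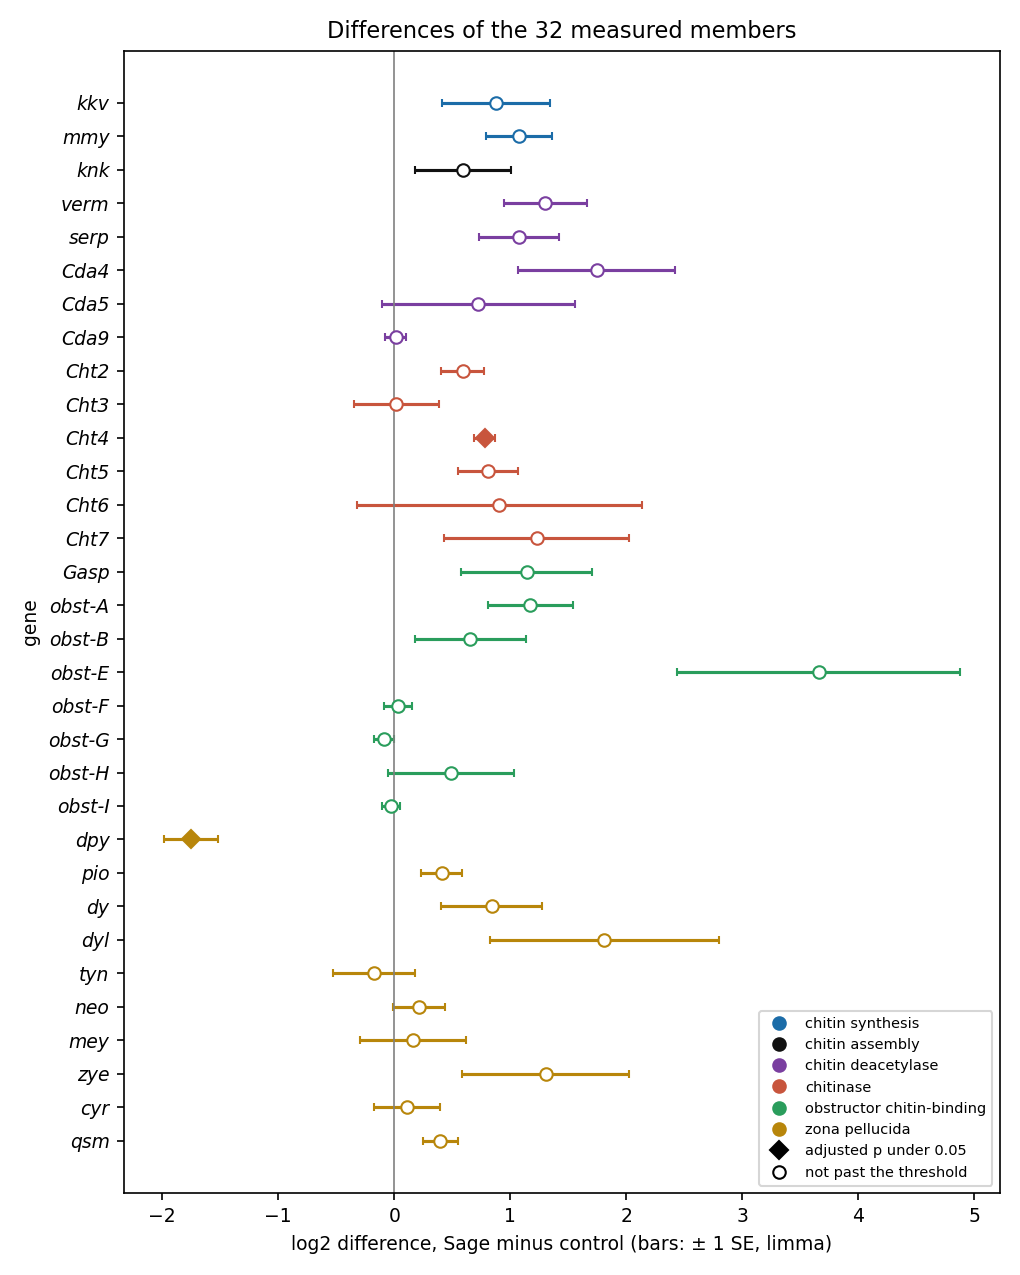
Fitted log2 differences (Sage minus control, horizontal axis) of the 32 measured genes, coloured by role, with bars of 1 SE. Filled diamonds mark Cht4 at 0.78 and dpy at -1.75, which passed the threshold, and the wide bars of obst-E and Cht6 mark genes whose arrays differed within a group.

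Cht4 (CG3986), of the glycosyl hydrolase family of chitinases, had log2 signals of 6.18, 6.22 and 6.32 in the Sage arrays, against 5.52, 5.34 and 5.52 in the control arrays. The mean was 6.24 ± 0.07 with Sage and 5.46 ± 0.10 in the controls (SD, n = 3 each). All Sage arrays lay above all control arrays, and neither group spread by more than 0.18. The gene rose 1.72-fold, by 0.78 ± 0.09 log2 units (SE, limma adjusted p = 0.00391). Its control mean of 5.46 lay below the median of every array (5.56 to 5.74), where the summarised signal compresses differences. The call held in each of the 12 alternatives that tested Cht4, with adjusted p-values of 0.00365 to 0.0331, and the replicate block gave the largest of these.

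The gene dpy (CG33196) encodes Dumpy, a giant ZP protein that anchors epidermal and tendon cells to the cuticle and forms part of the matrix of the tracheal lumen. Its log2 signals were 6.32, 5.45 and 5.72 in the Sage arrays, against 7.40, 7.68 and 7.68 in the control arrays. The mean was 5.83 ± 0.44 with Sage and 7.59 ± 0.16 in the controls (SD, n = 3 each). No Sage array reached the lowest control, and the control arrays were close to each other. The signal fell 3.37-fold, a log2 change of -1.75 ± 0.23 (SE, limma adjusted p = 0.00632). The Sage signals of replicates 2 and 3 lay below the medians of their own arrays (5.70 and 5.73), so the size of the fall may be compressed. The difference was -1.56, -1.85 and -1.84 against control replicates 1, 2 and 3 taken singly, and the call held in each of 13 alternatives, with adjusted p-values of 0.00425 to 0.0414. A single probe set measured this very long gene.

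**Figure D2:**
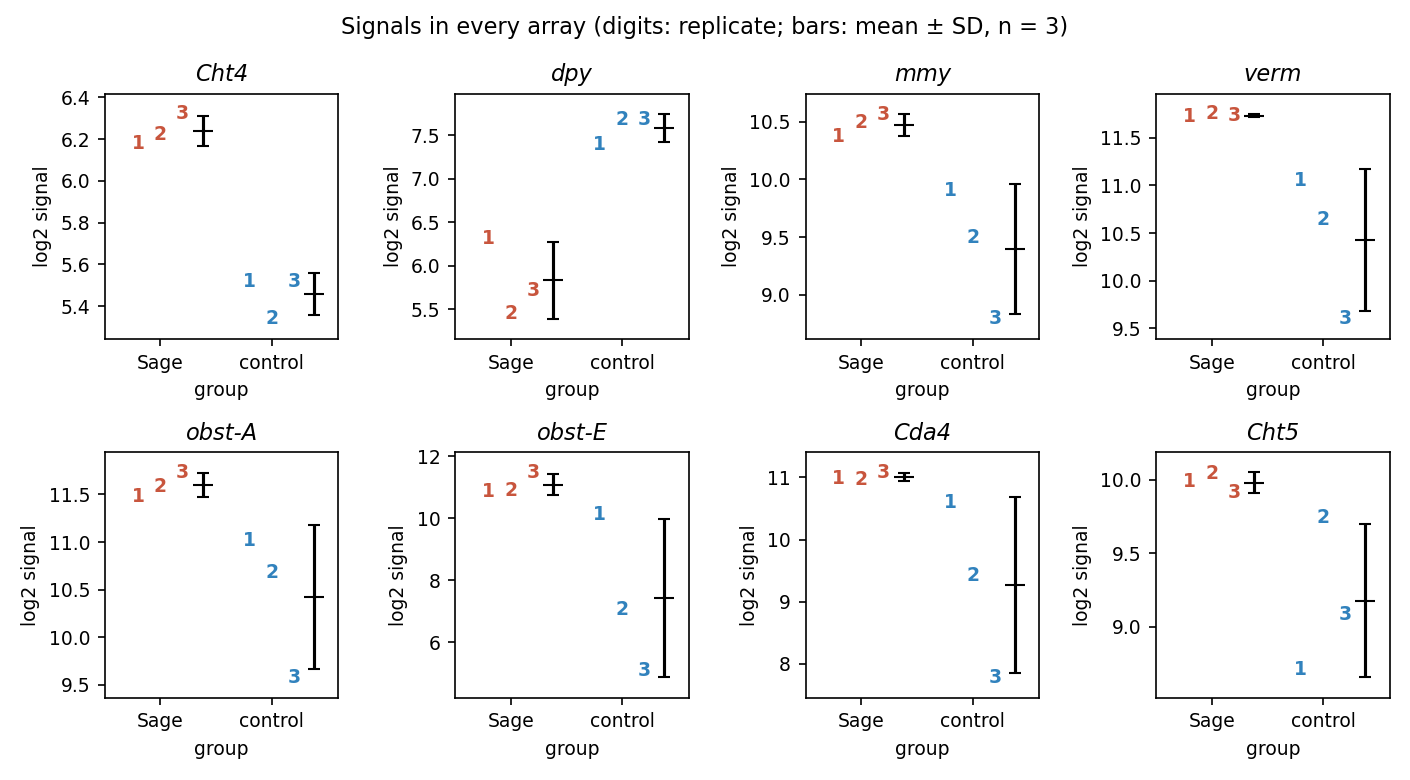
Log2 signals of 8 genes in every array (digits give the replicate), with the mean and SD of 3 arrays per group beside them. Cht4 and dpy show groups that do not overlap and controls close together, whereas in mmy, verm, obst-A, obst-E and Cda4 control replicate 3 lies lowest and control replicate 1 nearest to the Sage arrays, and in Cht5 control replicate 1 lies lowest.

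Both measured genes of chitin synthesis had positive differences that did not pass. The gene mmy encodes the pyrophosphorylase that makes UDP-N-acetylglucosamine. It had 10.37, 10.49 and 10.56 in the Sage arrays, against 9.90, 9.50 and 8.79 in the control arrays. The groups did not overlap, and the control arrays spread by 1.12 where the Sage arrays spread by 0.19. The log2 difference of 1.08 (SE 0.28) reached a limma adjusted p of 0.0594, the lowest among the genes that did not pass. It passed without control replicate 1 (1.33, adjusted p = 0.0174) and without control replicate 3 (0.77, adjusted p = 0.0193).

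The gene kkv encodes the chitin synthase of cuticle and trachea. Its log2 signals were 11.71, 11.86 and 11.60 in the Sage arrays, against 11.42, 11.38 and 9.73 in the control arrays. Control replicate 3 was thus far below the other control arrays, which lay within 0.35 of the Sage mean. The difference was 0.88 ± 0.46 (SE, limma adjusted p = 0.301). For knk, whose product organises newly made chitin at the cell surface, the signals were 10.12, 10.04 and 10.05 with Sage, against 9.98, 9.96 and 8.48 in the controls. The difference of 0.59 ± 0.41 (SE, limma adjusted p = 0.436) was 0.09 against control replicate 1, 0.11 against control replicate 2 and 1.59 against control replicate 3.

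Among the 5 chitin deacetylase genes, none passed, 5 had positive differences, and the median was 1.08. The genes verm and serp, which are adjacent in the RefSeq annotation, encode secreted deacetylases that limit the length of tracheal tubes. The signals of verm were 11.72, 11.75 and 11.73 in the Sage arrays, against 11.05, 10.64 and 9.60 in the control arrays. The Sage arrays agreed to within 0.03 and the groups did not overlap. The difference was 1.30 ± 0.36 (SE, limma adjusted p = 0.0706), and verm passed without control replicate 1 (1.61, adjusted p = 0.0235) and without control replicate 3 (0.89, adjusted p = 0.01).

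Its neighbour serp had a difference of 1.08 ± 0.34 (SE, limma adjusted p = 0.106) and passed without control replicate 3 (0.67, adjusted p = 0.0108). Cda4 had 10.99, 10.96 and 11.08 with Sage, against 10.60, 9.42 and 7.78 in the controls. Each control array lay below each Sage array, but the controls differed among themselves by 2.83. The difference of 1.74 ± 0.68 (SE, limma adjusted p = 0.169) passed without control replicate 1 (2.41, adjusted p = 0.0257). Cda5 had a difference of 0.72, which was -0.18 without control replicate 3. Cda9 had 0.01, with a mean signal below every array median.

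All 6 chitinase genes had positive differences, Cht4 alone passed, and the median was 0.79. Cht7 had 11.74, 11.70 and 11.80 with Sage, against 11.83, 11.09 and 8.63 in the controls. Control replicate 1 lay above all Sage arrays and control replicate 3 far below them, for a difference of 1.23 (SE 0.80, adjusted p = 0.402 by limma). Cht6 had 10.56, 7.21 and 10.18 with Sage, against 10.11, 8.64 and 6.48 in the controls. Both groups spread by over 3 log2 units, and the difference was 0.91 (SE 1.23, adjusted p = 0.717 by limma). Its other probe sets, both dimmer, gave 0.04 and 0.37 and did not pass.

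Cht5 had a different pattern among the controls. Its signals were 9.99, 10.04 and 9.91 in the Sage arrays, against 8.71, 9.74 and 9.08 in the control arrays. The lowest control was replicate 1, and all Sage arrays lay above all control arrays. The difference was 0.80 ± 0.26 (SE, limma adjusted p = 0.107), and it passed without control replicate 2 (1.09, adjusted p = 0.0179). Cht2 had 0.59 (adjusted p = 0.105 by limma) and Cht3 had 0.02 (adjusted p = 0.984 by limma). Without control replicate 3, the difference of Cht3 was -0.36.

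Among the 8 obstructor genes, which encode secreted proteins with peritrophin-type chitin-binding domains, none passed and the median was 0.57. The largest difference of any member was that of obst-E, which is known for its part in body shape. It had 10.86, 10.90 and 11.47 in the Sage arrays, against 10.13, 7.05 and 5.08 in the control arrays. The controls alone spanned 5.05 log2 units, and the Sage mean was 0.95, 4.03 and 5.996 above control replicates 1, 2 and 3. The signal in control replicate 3 lay below every array median, so the distance to that array may be compressed. The difference of 3.66 ± 1.22 (SE) had a limma adjusted p of 0.117, and it passed without control replicate 1 (5.01, adjusted p = 0.0071). A second probe set of obst-E gave 2.37 (adjusted p = 0.153 by limma), with the controls in the same order.

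The gene obst-A encodes a protein that organises chitin and its modifying enzymes in the assembly zone of the cuticle. It had 11.48, 11.58 and 11.73 with Sage, against 11.02, 10.68 and 9.58 in the controls. The groups did not overlap, and the difference was 1.17 (SE 0.37, adjusted p = 0.1 by limma). It passed without control replicate 1 (1.47, adjusted p = 0.0377) and without control replicate 3 (0.75, adjusted p = 0.019). Gasp, a chitin-binding protein of the tracheal lumen, had a difference of 1.14 (adjusted p = 0.27 by limma), obst-B had 0.66 and obst-H 0.49. The differences of obst-F (0.03), obst-G (-0.09) and obst-I (-0.03) came from probe sets whose mean signal lay below every array median, where a change would be compressed.

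The 10 measured ZP genes had the lowest median difference of the role groups, 0.305, with dpy alone past the threshold. The gene dyl, which encodes a ZP protein of denticles and bristles, had 11.89, 12.16 and 11.81 with Sage, against 11.57, 11.09 and 7.77 in the controls. Control replicate 3 was over 3 log2 units below the other controls. The difference of 1.81 (SE 0.99, adjusted p = 0.316 by limma) was 0.38, 0.87 and 4.18 against control replicates 1, 2 and 3. The related gene dy, known for its part in wing cell shape, had 0.84 (SE 0.44, adjusted p = 0.291 by limma).

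The denticle genes tyn, neo and mey had small differences of -0.17, 0.22 and 0.16. Control replicate 2 was the highest of the 6 arrays for all of them, at 12.04, 12.04 and 12.48. The gene neo passed without control replicate 2 (0.47, adjusted p = 0.0422 by limma). The gene zye, another denticle ZP gene, had 1.30 (SE 0.72), with Sage replicate 2 at 5.15 against 7.31 and 7.15 in the other Sage arrays. Its control mean of 5.23 lay below every array median, so its differences may be compressed. The remaining ZP genes were pio, whose product acts with Dumpy in the trachea and wing (0.41), qsm, known from light input to the circadian clock (0.40), and cyr (0.11), none of which passed. The other probe sets of pio, both dimmer, gave 0.13 and 0.085 and did not pass.

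**Figure D3:**
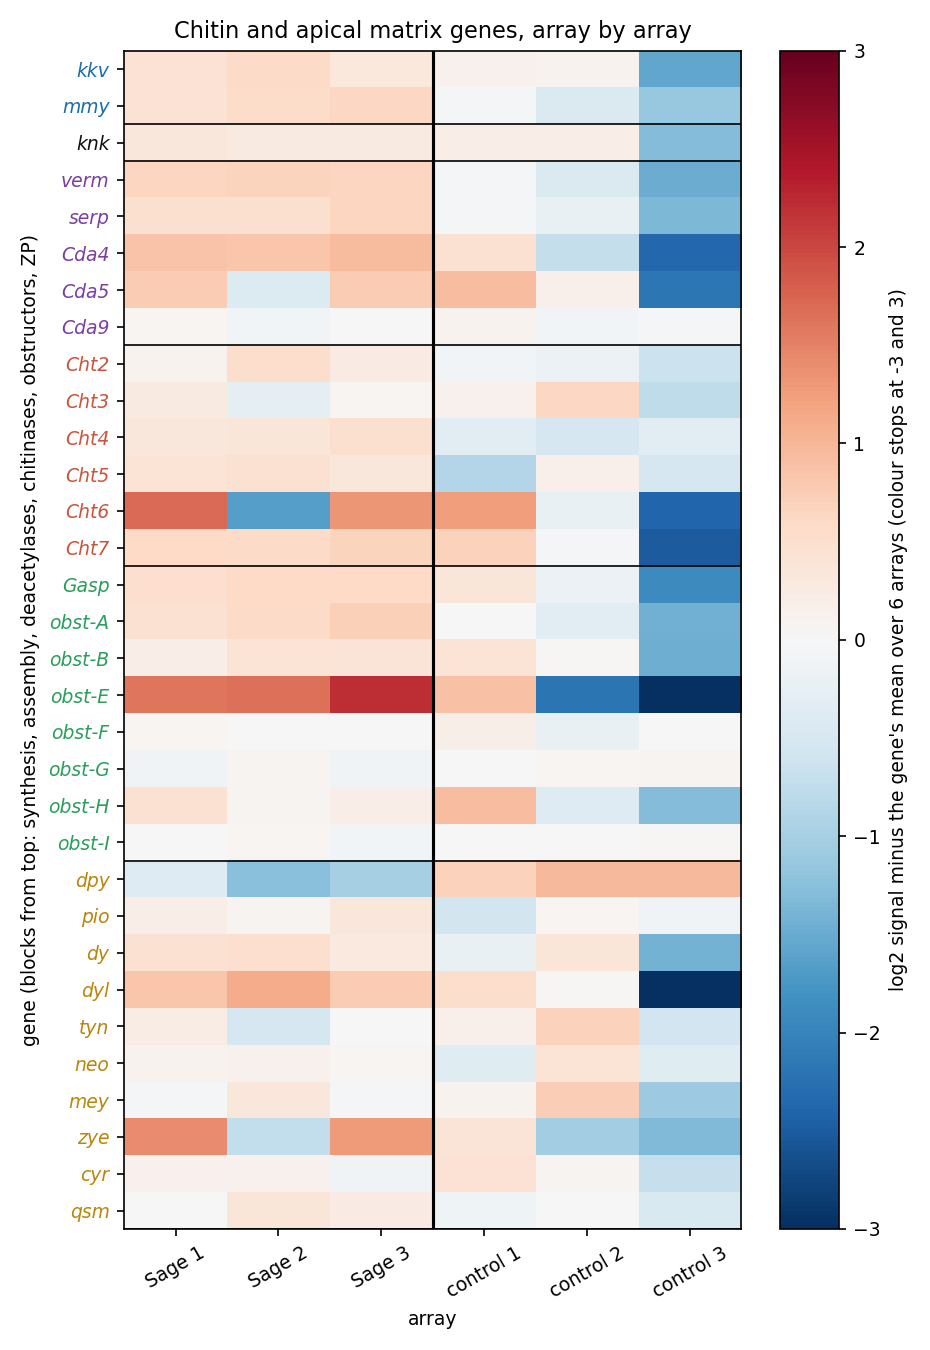
Log2 signal of each gene minus its own mean over the 6 arrays, with red above and blue below that mean, Sage arrays on the left and control arrays on the right, and genes in blocks by role. Control replicate 3 is blue in most rows, dpy has the opposite pattern, and Sage replicate 2 is blue for Cht6, zye and Cda5.

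Set against each control array singly, the same 32 genes gave unlike pictures. These comparisons share the 3 Sage arrays, have 1 control array each and carry no test. The median of the members was 0.23 over control replicate 1, 0.26 over control replicate 2 and 1.56 over control replicate 3, where all genes had medians of 0.05, 0.02 and -0.06. The Sage mean was at least 2-fold above control replicate 1 for 1 member, Cht5, where 2.95% of all genes reached that fold. It was at least 2-fold above control replicate 2 for 4 members, verm, Cda4, obst-E and zye (12.5%, against 5.52% of all genes), and above control replicate 3 for 18 members (56.2%, against 13.4% of all genes). The gene dpy was the member at least 2-fold below each control, where 5.93%, 6.07% and 12.8% of all genes were.

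By role, the deacetylase genes had medians of 0.41, 0.76 and 2.13 over control replicates 1, 2 and 3, and the obstructor genes -0.02, 0.45 and 1.66. The chitinase genes had 0.14, 0.56 and 0.92, and the ZP genes 0.29, 0.01 and 0.69. The 13 chitin enzymes (synthesis, deacetylases and chitinases) together had 0.37, 0.65 and 1.89. The distance to control replicate 3 was thus the largest in each of these groups, and it was smaller for chitinase and ZP genes than for deacetylase and obstructor genes. No test was made between roles.

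**Figure D4:**
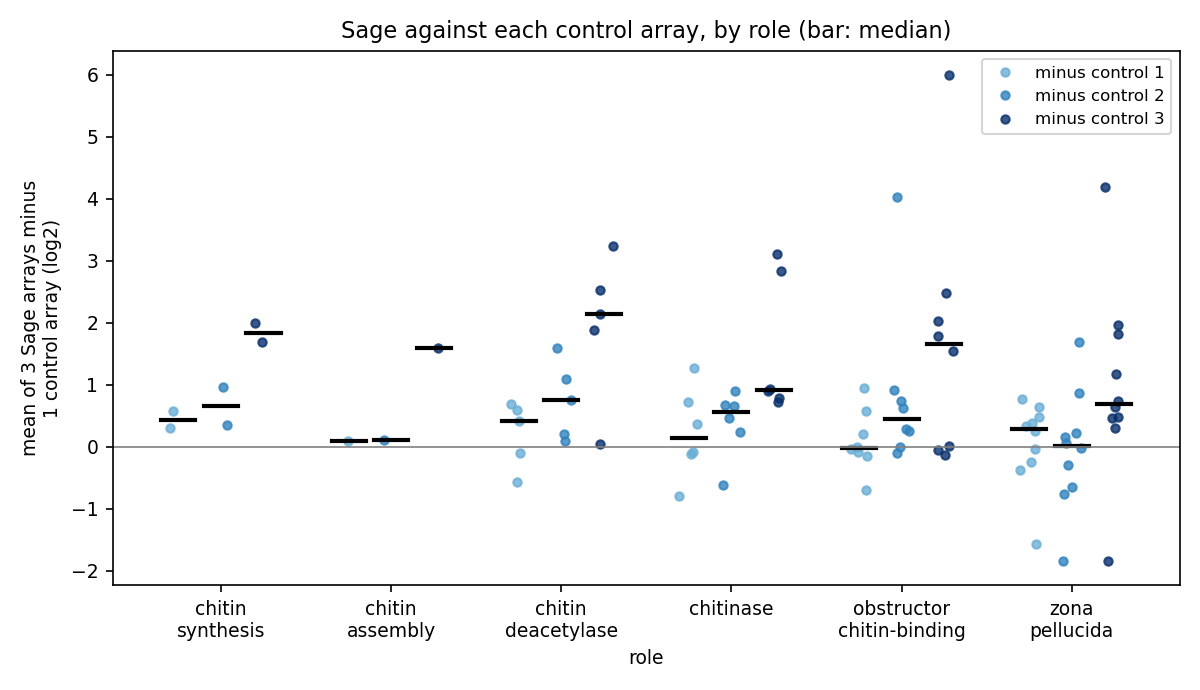
Mean of the 3 Sage arrays minus each control array (log2, vertical axis) by role, with a point per gene and a bar at the median. The points for control replicate 3 reach 5.996 (obst-E) and their medians are the highest in every role, whereas those for control replicate 1 have medians from -0.02 to 0.44.

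The control arrays differed widely from each other for most of these genes. They differed by more than 1 log2 unit for 22 of 32 members (68.8%, against 16.5% of all genes), and the Sage arrays for 3 members (9.38%, against 2.08%). The median range was 0.23 among the Sage arrays and 1.42 among the control arrays, where all genes had 0.23 and 0.40. The values over all genes, here and for direction and overlap, were not matched for signal level. A mean of at least 6 was reached by 26 of 32 members and by 7388 of 11982 genes, and low signals compress differences. Control replicate 3 was the lowest control for 23 members (71.9%, against 31% of all genes). For 18 members (56.2%, against 20.9%) the controls lay in the order replicate 3, replicate 2, replicate 1 from low to high.

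That order held for the genes of synthesis and assembly, 4 of 5 deacetylase genes, 3 of 6 chitinase genes, 5 of 8 obstructor genes and 3 of 10 ZP genes. Despite this spread, all Sage arrays lay above all control arrays for 15 members (46.9%), against 19.9% of all genes. For dpy alone all lay below, which was so for 21% of all genes. Sage replicate 2 stood apart for Cht6, zye and Cda5, with differences from the mean of the other Sage arrays of -3.16, -2.08 and -1.17. This was not particular to members. Some genes of the marker lists below, though not most, were also low in Sage replicate 2. Examples are bt of muscle (8.84, against 11.65 and 11.22) and cac of neurons (5.79, against 8.15 and 7.75). Without that array, Cht6 had a difference of 1.96, zye of 1.997 and Cda5 of 1.11, and none of them passed.

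The calls depended on single control arrays more than on Sage arrays. Without control replicate 1, 6 members were called higher, where 9.09% of all genes were, and the added genes were mmy, verm, Cda4, obst-A and obst-E. Without control replicate 3, 5 members were called higher, where 7.4% of all genes were, and the added genes were mmy, verm, serp and obst-A. The median of the members was then 0.28. Without control replicate 2, 3 members were called higher, where 3.3% of all genes were, with Cht5 and neo added. Leaving out Sage replicate 1, 2 or 3 left 1 member higher each time, where 3.2%, 2.6% and 1.94% of all genes were. The replicate block also left 1, where 2.45% of all genes were called higher. A filter keeping probe sets with a mean of at least 6 called 2 members higher, mmy and verm, where 8.27% of all genes were, and did not test Cht4. Subtracting array medians and a trended, robust prior each called Cht4 and mmy higher, where 4.21% and 5.14% of all genes were. The gene dpy was the 1 member called lower in each of these, where 6.68% to 19.7% of all genes were.

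Genes that supply the precursor were read in the same fit, from a list chosen, like the others below, with earlier results of these data known. Of 7 measured genes of this supply, 2 rose and none fell, against 5.6% higher and 12.2% lower among all genes, with a median difference of 0.52. Treh, which encodes trehalase and releases glucose from the blood sugar trehalose, had 8.44, 8.75 and 8.95 with Sage, against 7.67, 7.74 and 7.51 in the controls. The groups were apart, and the gene rose by 1.07 on the log2 scale (adjusted p = 0.00715 by limma). Gfat2, an enzyme of the entry step of the hexosamine pathway, rose by 0.48 (adjusted p = 0.0464 by limma). That call was lost without any one of the 6 arrays, with differences of 0.40 to 0.56 and adjusted p-values of 0.0586 (without control replicate 2) to 0.13 (without Sage replicate 2), and also with the replicate block, the filter, subtracted medians and the trended prior, whereas Treh kept its call in every alternative that was run. Gfat1, a paralogue of Gfat2, had 11.86, 11.59 and 11.87 with Sage, against 11.61, 10.55 and 8.31 in the controls, and did not pass (1.61, adjusted p = 0.272 by limma).

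Of 14 other chitin enzymes and chitinase-like genes, 2 rose and none fell, beside 5.6% and 12.2% of all genes, with a median of 0.29. Cht9, another chitinase gene, had 8.41, 8.41 and 8.80 in the Sage arrays, against 5.69, 5.76 and 5.86 in the control arrays. The controls agreed to within 0.17 and lay near the array medians, and the gene rose 6.84-fold (log2 difference 2.77, limma adjusted p = 0.000562), a call kept in every alternative that was run. Idgf1, a chitinase-like growth factor without chitinase activity, rose 3.25-fold, with 7.35, 6.74 and 7.70 in the Sage arrays, against 5.88, 5.49 and 5.32 in the control arrays (adjusted p = 0.0122 by limma). Control replicates 2 and 3 lay below the medians of their own arrays (5.64 and 5.56), so this fold may be compressed. Its call was lost when control replicate 2 was left out (1.66, limma adjusted p = 0.0508) and when Sage replicate 1 was (1.66, limma adjusted p = 0.055). The other 5 Idgf genes had differences between -0.37 and 0.49 and did not pass. The genes reb and exp, both needed for chitin deposition in the trachea, had 1.05 and 1.06 and did not pass.

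Of 17 other genes listed for chitin binding, apical matrix or cuticle, 2 rose and none fell, where 5.6% and 12.2% of all genes did. The median was 0.53. This list also holds Alas, which encodes an enzyme of heme synthesis and not a matrix protein. The genes that rose were pot, which encodes the ZP protein Papillote (0.55, adjusted p = 0.0480 by limma), and uif, an apical membrane protein of the trachea (0.75, adjusted p = 0.0385 by limma). The call of pot was lost when control replicate 2 was left out (0.63, limma adjusted p = 0.076) and when any Sage array was (limma adjusted p from 0.135 to 0.173). That of uif was lost when control replicate 1 was left out (0.70, limma adjusted p = 0.0713) and when any Sage array was (limma adjusted p from 0.12 to 0.135), and a second, dim probe set of uif gave -0.0025. Both calls were also lost with the replicate block, with array medians subtracted and with a trended, robust prior. That of uif was lost as well when its probe sets were averaged (0.37, limma adjusted p = 0.0662). The barrier genes snu, an ABC transporter of the cuticle surface, and snsl differed by 2.43 and 2.29, neither past the threshold. The signals of snu were 10.39, 10.19 and 10.59 with Sage, against 10.26, 8.22 and 5.40 in the controls, the same order of controls as in obst-E. None of 8 regulators of the epidermal cuticle passed, and 7 of them had negative differences. For SoxN the groups did not overlap (-0.51, adjusted p = 0.0924 by limma). The gene ovo, whose forms include Shavenbaby but were not told apart here, had -0.52. The gene grh, a regulator of cuticle genes, had -0.36, and the groups overlapped for ovo and grh. Against control replicates 1, 2 and 3, ovo had 0.08, -0.59 and -1.05, and grh had -0.02, -0.48 and -0.58.

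Marker lists of other tissues and of embryo age moved across the same arrays, and their counts stand beside the same 5.6% and 12.2% of all genes. Of 12 larval cuticle protein genes, 4 rose (Cpr49Ae, Lcp65Ac, Ccp84Ae and TwdlN) and none fell, and the list's summed log2 signal was 102.27 to 107.60 in the Sage arrays, against 63.00 to 94.89 in the control arrays. The median difference was 0.40, 2.49 and 4.06 against control replicates 1, 2 and 3. Of 8 muscle genes, none passed, with sums of 88.57 to 93.28 in the Sage arrays and 70.46 to 91.25 in the control arrays, and medians of 0.04, 0.59 and 2.91 against control replicates 1, 2 and 3. Control replicate 3 was the lowest control for all 8 of them.

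Of 11 maternal transcripts, none rose and 7 fell, among them swa, plu, BigH1 and wisp, with sums of 61.09 to 66.37 in the Sage arrays and 91.48 to 101.11 in the control arrays. Their median difference was -3.62, -3.53 and -4.18 against control replicates 1, 2 and 3, so at the median all controls lay far above the Sage arrays. For nanos, png and gnu the groups overlapped, with differences of -0.17, -0.04 and -0.53. The list's median signal in the Sage arrays, 5.18 to 5.68, was below the array medians, as was that of the larval cuticle genes in control replicate 3 (5.11), so these distances may be compressed. Of 7 tracheal genes, of which Gasp and kkv are members, uif rose and none fell, with sums of 65.05 to 65.93 in the Sage arrays and 56.67 to 64.29 in the control arrays. None of 9 neuronal genes passed, and 3 of 9 hemocyte genes rose (PPO1, PPO2 and Pxn). Of 8 salivary gland genes, 4 rose (sage, Sgs4, PH4alphaSG1 and PH4alphaSG2). Among these, sage is the gene that the transgene encodes, so its rise was set by the design. The genes fkh, eyg, Sgs3 and Sgs5 did not pass, with differences of 0.12, -0.20, 0.02 and 0.03. The part of embryo age or tissue content in the differences of the members was not tested.

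**Figure D5:**
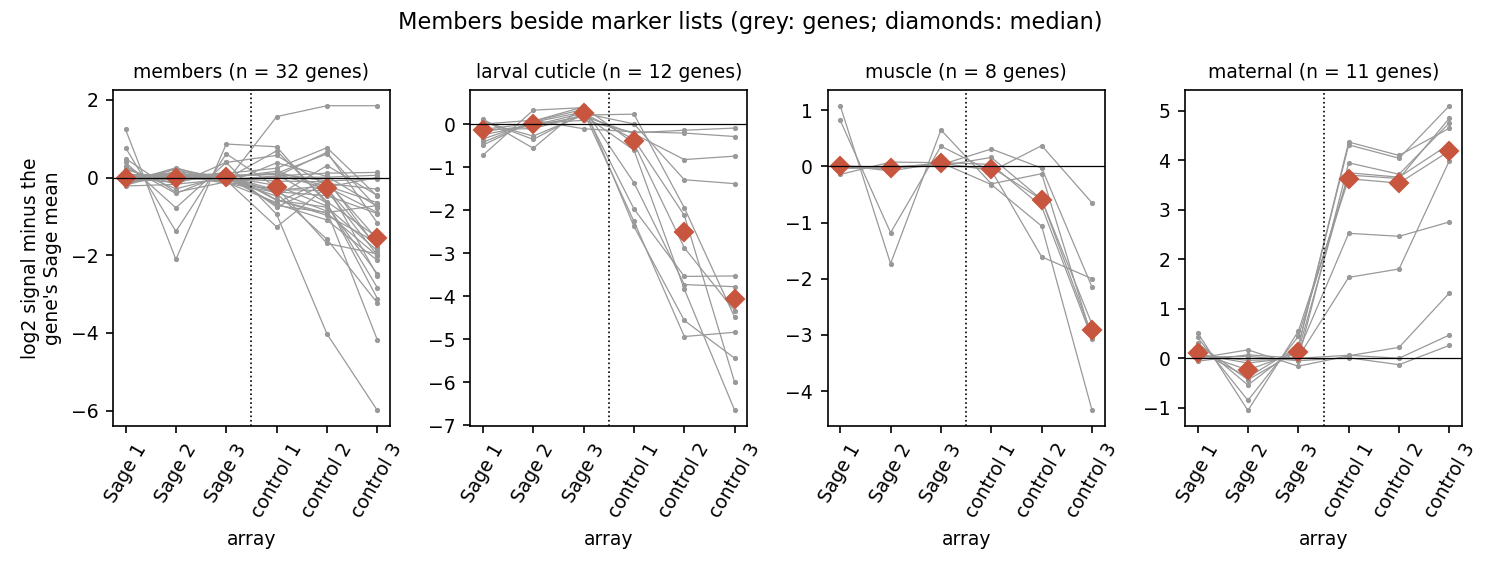
Log2 signal minus each gene's Sage mean (vertical axis) in every array, with grey lines for genes and diamonds for the median, for the 32 members and for lists of larval cuticle, muscle and maternal genes. Members, cuticle and muscle genes share the lowest median in control replicate 3, and maternal genes lie above 3 at the median in all controls.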

How the data were processed

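RNA of 6 samples of whole embryos was hybridised to Affymetrix 3' arrays. The deposited values are log2 signals per probe set. Per the submitters' processing notes, RMA and Partek were used (versions not listed). In RMA, background is removed, arrays are brought to a common distribution and the probes of a set are summarised. No genome build for the array was found, so no coordinates are printed.

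From 18952 probe sets the 183 controls were dropped and 18769 tested without a filter. Gene symbols follow RefSeq, matched by Entrez identifier. Groups came from the sample titles. The test was limma 3.58.1 (lmFit, eBayes, R 4.3.3), two-sided on Sage minus control, without covariates. The procedure was tested on simulated data with equal spread in both groups, which most members here did not have. Alternatives left out each array or changed the block, filter, scaling, prior or probe set. Replicate numbers did not pair the samples. Members and gene lists were chosen with earlier results of these data known. All members are named. Signals in every array are given for members past the threshold and for the 2 largest differences of each role. From other lists, up to 4 genes past the threshold are named, and only some of them have signals in every array. Cht5, zye, Gfat1, reb, exp, snu, snsl, SoxN, ovo and grh were described further after their values were seen. No sequences are shown, since none were in the files used.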

Additional observations from a re-analysis of the deposited data

How the results depend on the processing

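Under 13 alternatives (each of 6 arrays left out, the replicate block, a filter keeping probe sets with a mean of at least 6, array medians subtracted, quantile normalization, a trended and robust prior, and 2 other choices of probe set), Cht4 and dpy passed wherever they were tested. Cht4 falls below that filter. The count of members higher, 1 in the reported test, was 1 to 6 when an array was left out, and 2 with the filter (mmy, adjusted p = 0.0394, and verm, 0.0441), with medians subtracted (mmy, 0.0485) and with the trended prior (mmy, 0.0407). The count lower stayed at 1. By role, the counts higher when an array was left out were 0 to 1 for synthesis, 0 to 2 for deacetylases, 1 to 2 for chitinases, 0 to 2 for obstructors and 0 to 1 for ZP genes, and with the filter no chitinase gene passed. The median difference was 0.28 to 0.89 when an array was left out and 0.60 with medians subtracted. In the replicate block 1 member was higher and 1 lower, and calls over all probe sets numbered 1398 against 2571. Deviations of same-numbered arrays correlated at -0.126, -0.0681 and -0.248, and the labels name nothing shared, so the numbers were not taken as pairs.

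The direction changed in at least 1 alternative for 10 members, none of them past the threshold, and 22 kept it throughout. With an array left out, the differences were -0.027 to 0.065 for Cda9, -0.18 to 1.37 for Cda5, -0.36 to 0.33 for Cht3, -0.059 to 1.96 for Cht6, -0.077 to 0.13 for obst-F, -0.038 to 1.08 for obst-H, -0.066 to 0.0090 for obst-I, -0.50 to 0.12 for tyn, -0.34 to 0.57 for mey and -0.20 to 0.36 for cyr. With medians subtracted, Cda9 gave -0.081, Cht3 -0.075 and obst-F -0.060, and with quantile normalization Cda9 gave -0.024 and obst-F -0.0083. The cause of these changes was not tested. Of the 6 other chitin and matrix genes past the threshold, Gfat2 (adjusted p = 0.0686), pot (0.122) and uif (0.076) did not pass with the replicate block. Nor did they with medians subtracted (0.139, 0.0599 and 0.0503) or with the trended prior (0.0719, 0.0913 and 0.0508). Gfat2 did not pass with the filter (adjusted p = 0.052) and uif with the mean of its probe sets (0.37, adjusted p = 0.0662). Low signal limits Cda9, obst-F, obst-G and obst-I. It also limits the control signals of Cht4 and zye, control replicate 3 of obst-E and Sage replicates 2 and 3 of dpy.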
